A study of Homo sapiens with 2 samples.

Results

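The mitochondrial ribosomal proteins were taken as the protein-coding genes whose symbol is MRPL or MRPS followed by a number and, in some, a letter. The rule found 77 of the 63677 genes in the count table, 48 named for the large subunit and 29 for the small subunit. They were compared in HGC-27 cells, an established human gastric carcinoma line, grown in RPMI-1640 medium. The lncPSCA culture received the plasmid pcDNA3.1-lncPSCA, which carries the long non-coding RNA lncPSCA, and the control culture received the plain pcDNA3.1 plasmid. Both were transfected with the reagent INTERFERin, and total RNA was taken with Trizol after 48 hours. Each group is 1 library, so no difference below has a replicate check, no test between the groups was possible and no p-value is given.

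The lncPSCA library held 23016646 counts and the control library 21552098 counts. The lncPSCA transcript has no row under its own name, so its level was not analysed here. The cells are labelled gastric adenocarcinoma, but the defining markers of epithelial cells were at or near 0. EPCAM had 7 reads in the lncPSCA library and 7 in the control library, KRT18 had 0 and 4, KRT19 0 and 1, and CDH1 20 and 26. VIM, an intermediate filament of mesenchymal cells, was at 2594 counts per 1000000 scaled counts (CPM) in the lncPSCA library and 2601 in the control library, and the fibroblast collagen COL1A1 was at 1042 and 1112 CPM. PTPRC, CD3E, PECAM1 and ALB had 9 reads or fewer in either library.

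Mitochondria have ribosomes of their own, which make the few proteins encoded in mitochondrial DNA, all of them subunits of the respiratory chain and ATP synthase. Their ribosomal RNAs come from mitochondrial DNA, while every ribosomal protein is encoded in the nucleus, made in the cytosol and imported. The small subunit decodes the messenger RNA and the large subunit forms the peptide bond and holds the exit tunnel. Many of the proteins have bacterial counterparts, and the others were added to the ribosome in mitochondria. Proliferating carcinoma cells express these genes broadly.

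The mRNAs of the mitochondrial ribosome were lower across both subunits in lncPSCA cells. Of the 77 genes, 74 reached a mean of 1 CPM over the 2 libraries, 47 of the large and 27 of the small subunit, and 73 of these 74 had a log2 ratio of lncPSCA over control below 0. Among all 15440 genes that reached that level, 51.9% were below 0. The median log2 ratio of the 74 was -0.36, a fold of 0.781, with quartiles of -0.49 and -0.22, against a median of -0.02 and quartiles of -0.26 and 0.28 over all genes. The whole set lay between -0.94 and 0.07.

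The shifts were small for single genes. No member was at least 2-fold different with a counting interval wholly beyond 1.5-fold (the 2-fold rule), which 0.596% of all genes passed as lower and 3.02% as higher. By the 25% rule, which asks for a level at least 25% higher or 20% lower on the scale of the log2 ratio and a 95% counting interval that leaves out 1, 38 of 74 members were lower, 0 were higher and 36 were neither. Of all genes, 16.8% were lower by that rule and 18.9% were higher (12.7% and 22.3% when libraries are scaled to total counts, where 35 members were lower). The counting interval of the fold lay wholly below 1 in 65 members, against 32.1% of all genes. It lay wholly above 1 in 0 members, against 27.0% of all genes, and it held 1 in 9. These intervals cover counting error only. When ratios were centred along mean level, transcript length and GC content together, an alternative chosen after the data were seen, 19 members were lower (25.7%, against 14.3% of all genes), 0 were higher and the median was -0.13.

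**Figure D1:**
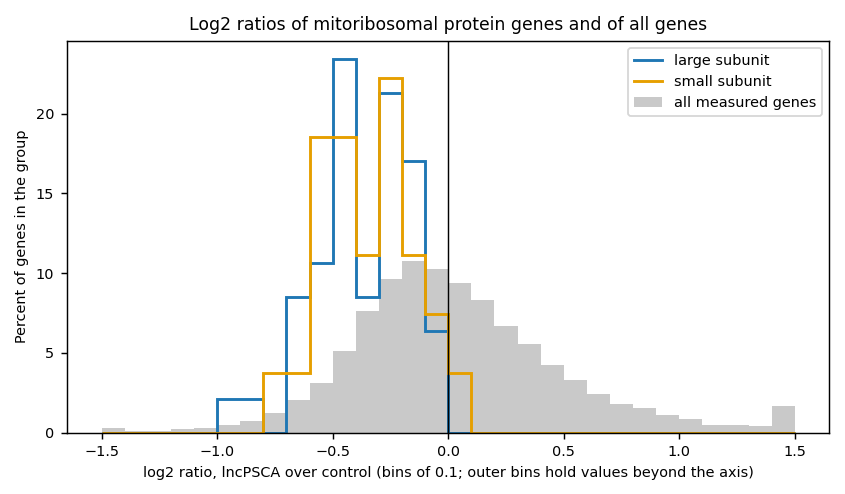
The x axis is the log2 ratio of lncPSCA over control in bins of 0.1 and the y axis is the percent of each group of genes in a bin. The blue outline is the 47 measured large subunit genes, the orange outline the 27 small subunit genes and the grey area all 15440 measured genes. Both outlines lie left of 0 apart from 1 small subunit gene, while the grey area is centred near -0.02.

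Summed over the set, the lncPSCA library held 135631 mitoribosomal reads (exact 95% Poisson interval 134910 to 136355), 0.589% of the library. The control library held 155024 (154253 to 155798), 0.719% of the library. The fold of the sums after scaling was 0.785, with a counting interval of 0.779 to 0.791. In RNA from whole cultures, fewer cells that express these genes and less of their mRNA per cell cannot be told apart.

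By the 25% rule, 23 of 47 large subunit genes were lower (48.9%, against 16.8% of all genes). All 47 had a ratio below 0. Their median log2 ratio was -0.35, and their summed reads were 88826 in lncPSCA cells and 102480 in control cells, a fold of 0.778 (0.771 to 0.785). Small subunit genes were lower in 15 of 27 (55.6%), and 26 had a ratio below 0. Their median was -0.38, and their summed reads were 46805 in lncPSCA cells and 52544 in control cells, a fold of 0.799 (0.790 to 0.809).

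The subunits did not separate in a steady direction. The large subunit median was above the small subunit median by 0.03 on the log2 scale, but by summed reads the large subunit was the lower one, by a log2 difference of -0.04. The large subunit took 65.5% of mitoribosomal reads in the lncPSCA library (exact binomial interval 65.2% to 65.7%) and 66.1% in the control library (65.9% to 66.3%), which is 1.90 large subunit reads per small subunit read in lncPSCA cells and 1.95 in control cells. The intervals of the shares do not overlap, but they hold no spread between cultures. MRPL13 alone held 7075 of the large subunit reads in the lncPSCA library and 9974 in the control library. Shares without MRPL13 were not analysed here. Moving MRPS18A and MRPS30, which the human structure places in the large subunit, to that side gave a difference of medians of 0.05. The difference was 0.10 without the members whose exons overlap another gene, an alternative added after the data were seen, and 0.06 with a minimum of 10 CPM.

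**Figure D2:**
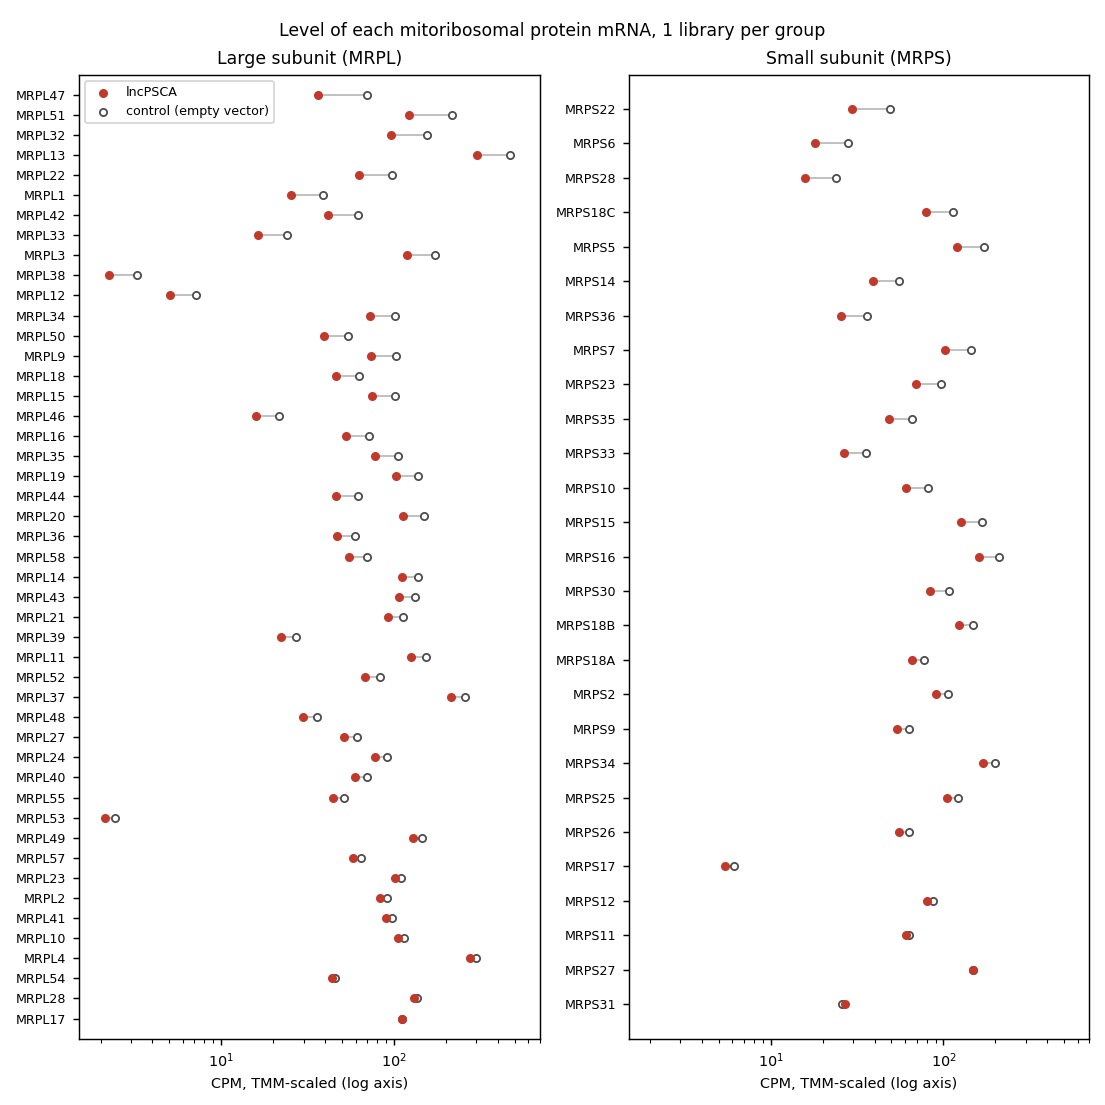
The x axis is the level in CPM on a log axis and each line of the y axis is 1 of the 74 measured genes, with the large subunit in the left panel and the small subunit in the right. Red points are the lncPSCA library and open points the control library, and a grey bar joins the pair. The control point is the right one of the pair in every large subunit gene plotted and in all small subunit genes plotted except MRPS31.

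MRPL47 and MRPL51 had the lowest ratios. MRPL47 (ENSG00000136522), the counterpart of bacterial L29 at the exit tunnel, had 851 reads and 36.2 CPM in lncPSCA cells and 1467 reads and 69.5 CPM in control cells, a log2 ratio of -0.94 and a fold of 0.521 (0.478 to 0.567). MRPL51 (ENSG00000111639), a large subunit protein found only in mitochondria, had 2864 reads and 122 CPM in lncPSCA cells and 4576 reads and 217 CPM in control cells, a fold of 0.562 (0.536 to 0.589). In both, the lncPSCA library held clearly fewer reads, even though it is the larger library.

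MRPS22 led the small subunit. MRPS22 (ENSG00000175110) is specific to mitochondria and is mutated in an inherited defect of oxidative phosphorylation. It had 698 reads and 29.7 CPM in lncPSCA cells and 1028 reads and 48.7 CPM in control cells, a fold of 0.609 (0.553 to 0.672).

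At the other end were MRPS31 and MRPL17. MRPS31 (ENSG00000102738), a small subunit protein specific to mitochondria, was the single one of the 74 measured members with a ratio above 0. It had 634 reads and 27.0 CPM in lncPSCA cells and 542 reads and 25.7 CPM in control cells, a fold of 1.05 (0.935 to 1.18). Its transcribed pseudogene MRPS31P5 had 28 reads in the lncPSCA library and 35 in the control library, and how reads were divided between them is not given in the sources used here. MRPL17 (ENSG00000158042), the counterpart of bacterial L17, stood at 112 CPM in both libraries, a fold of 0.999 (0.945 to 1.06).

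The promoters of these 5 genes are shown because they are the ends of the range, from the lowest ratios to the highest. They are from RefSeq, build GRCh38.p14, and run from 250 bases before to 50 bases after the first listed start, 5′ to 3′ on the strand of the gene. The build is not that of the counts. Capitals mark matches, on either strand, to motifs of factors known for promoters of mitochondrial genes: CCGGAAG for the ETS factors such as GABPA, AAGATGGC for YY1, and for NRF1 the 10 bases in capitals in the MRPL17 promoter, with base 6 free to be any base. CACGTG, the E-box that MYC can bind, was also searched and is in none of the 5. The intervals are chr3:179604589-179604888 on the minus strand for MRPL47, chr12:6493213-6493512 on the minus strand for MRPL51, chr3:139343744-139344043 on the plus strand for MRPS22, chr13:40771141-40771440 on the minus strand for MRPS31 and chr11:6683291-6683590 on the minus strand for MRPL17.
MRPL47: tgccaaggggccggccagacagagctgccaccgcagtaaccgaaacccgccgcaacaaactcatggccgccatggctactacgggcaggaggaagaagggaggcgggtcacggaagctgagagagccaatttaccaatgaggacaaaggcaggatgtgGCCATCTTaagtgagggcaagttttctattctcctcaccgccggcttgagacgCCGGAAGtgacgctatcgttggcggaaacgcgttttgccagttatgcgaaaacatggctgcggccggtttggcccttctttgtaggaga
MRPL51: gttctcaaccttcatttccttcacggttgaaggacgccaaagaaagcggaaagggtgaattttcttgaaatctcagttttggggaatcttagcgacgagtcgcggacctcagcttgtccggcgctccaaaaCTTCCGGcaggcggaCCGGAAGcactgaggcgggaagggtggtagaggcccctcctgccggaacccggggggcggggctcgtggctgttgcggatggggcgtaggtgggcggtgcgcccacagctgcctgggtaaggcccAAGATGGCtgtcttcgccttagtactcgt
MRPS22: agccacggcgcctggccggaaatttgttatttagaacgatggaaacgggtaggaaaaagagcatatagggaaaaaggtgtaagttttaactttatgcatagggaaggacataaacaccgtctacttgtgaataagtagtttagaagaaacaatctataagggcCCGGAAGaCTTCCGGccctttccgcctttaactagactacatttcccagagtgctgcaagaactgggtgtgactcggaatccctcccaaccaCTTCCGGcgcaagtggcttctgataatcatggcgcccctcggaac
MRPS31: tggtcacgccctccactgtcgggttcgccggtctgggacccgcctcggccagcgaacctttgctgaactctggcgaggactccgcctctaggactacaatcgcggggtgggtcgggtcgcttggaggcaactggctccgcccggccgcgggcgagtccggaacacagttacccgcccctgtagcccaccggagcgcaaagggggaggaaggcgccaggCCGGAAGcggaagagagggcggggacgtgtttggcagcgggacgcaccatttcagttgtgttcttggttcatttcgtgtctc
MRPL17: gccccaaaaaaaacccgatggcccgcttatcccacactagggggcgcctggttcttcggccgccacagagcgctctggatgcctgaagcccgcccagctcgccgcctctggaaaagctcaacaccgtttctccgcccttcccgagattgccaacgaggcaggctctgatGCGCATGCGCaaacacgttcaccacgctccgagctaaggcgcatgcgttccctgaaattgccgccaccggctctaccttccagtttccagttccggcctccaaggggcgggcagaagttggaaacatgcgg

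MRPL47 holds 1 ETS match and 1 YY1 match, MRPL51 holds 2 ETS matches and 1 YY1 match and MRPS22 holds 3 ETS matches. MRPS31 also holds 1 ETS match, and MRPL17 holds 1 NRF1 match. A match is a string of letters and not a shown binding site.

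Over the set, 68 of the 77 genes had a promoter in the table. The ETS motif was in 42.6% of these 68, against 10.7% of all 27305 promoters of the same length, and the YY1 motif in 27.9%, against 3.03%. The NRF1 motif was in 10.3% of members, against 6.28%, and the E-box in 7.35%, against 7.43%. The 27305 promoters were not limited to protein-coding or measured genes, whereas the members are protein-coding and nearly all measured. Members with the ETS motif had a median log2 ratio of -0.35 (27 measured genes) and those without it -0.36 (38 genes). The medians were -0.44 with the YY1 motif (18 genes) and -0.30 without it (47 genes), -0.26 with the NRF1 motif (6 genes) and -0.38 without it (59 genes), and -0.36 with and without the E-box. The ETS motif, the commonest of the 4, thus went with a difference in median of less than 0.01. The YY1 motif went with a lower median and the NRF1 motif, in 6 measured genes, with a higher one. No test of these differences was made.

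The other low members were mostly proteins of the bacterial core. MRPL32, a zinc-binding protein matured by the m-AAA protease, was at 96.0 CPM in lncPSCA cells and 156 CPM in control cells, a fold of 0.617 (0.585 to 0.651). MRPL13 was at 301 CPM in lncPSCA cells and 473 CPM in control cells, a fold of 0.637 (0.617 to 0.656). MRPL22, which lines the exit tunnel, was at 63.1 CPM in lncPSCA cells and 97.5 CPM in control cells, a fold of 0.647 (0.605 to 0.692). MRPL1, of the stalk where tRNAs leave, MRPL13, MRPL22 and MRPL32 all have bacterial counterparts, and each interval lay below 1. MRPL1 had a fold of 0.657 (0.591 to 0.732), at 25.4 CPM in lncPSCA cells and 38.6 CPM in control cells. In the small subunit, MRPS6 was at 18.1 CPM in lncPSCA cells and 28.1 CPM in control cells, a fold of 0.643 (0.567 to 0.730).

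The high end of the range was flat rather than raised. MRPS27, a small subunit protein with pentatricopeptide repeats, was at 148 CPM in both libraries, a fold of 0.996 (0.949 to 1.05). MRPS11 was at 60.7 CPM in lncPSCA cells and 62.9 CPM in control cells, MRPL28 at 131 and 137 CPM, and MRPL54 at 43.6 and 45.8 CPM, and the interval of each fold held 1. MRPL4, which lines the exit tunnel, had a fold of 0.924 (0.893 to 0.957), at 275 CPM in lncPSCA cells and 297 CPM in control cells. MRPL10, at the base of the stalk that recruits translation factors, had a fold of 0.923 (0.872 to 0.977), at 105 CPM in lncPSCA cells and 114 CPM in control cells. The direction of MRPS27 and MRPL17 is not settled, since their ratios turn to slightly above 0 with DESeq2 size factors or total counts. Those of MRPS11 and MRPL28 also turn with total counts, and MRPL4, MRPL10 and MRPL54 turn only under some of the centrings described in the closing section.

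**Figure D3:**
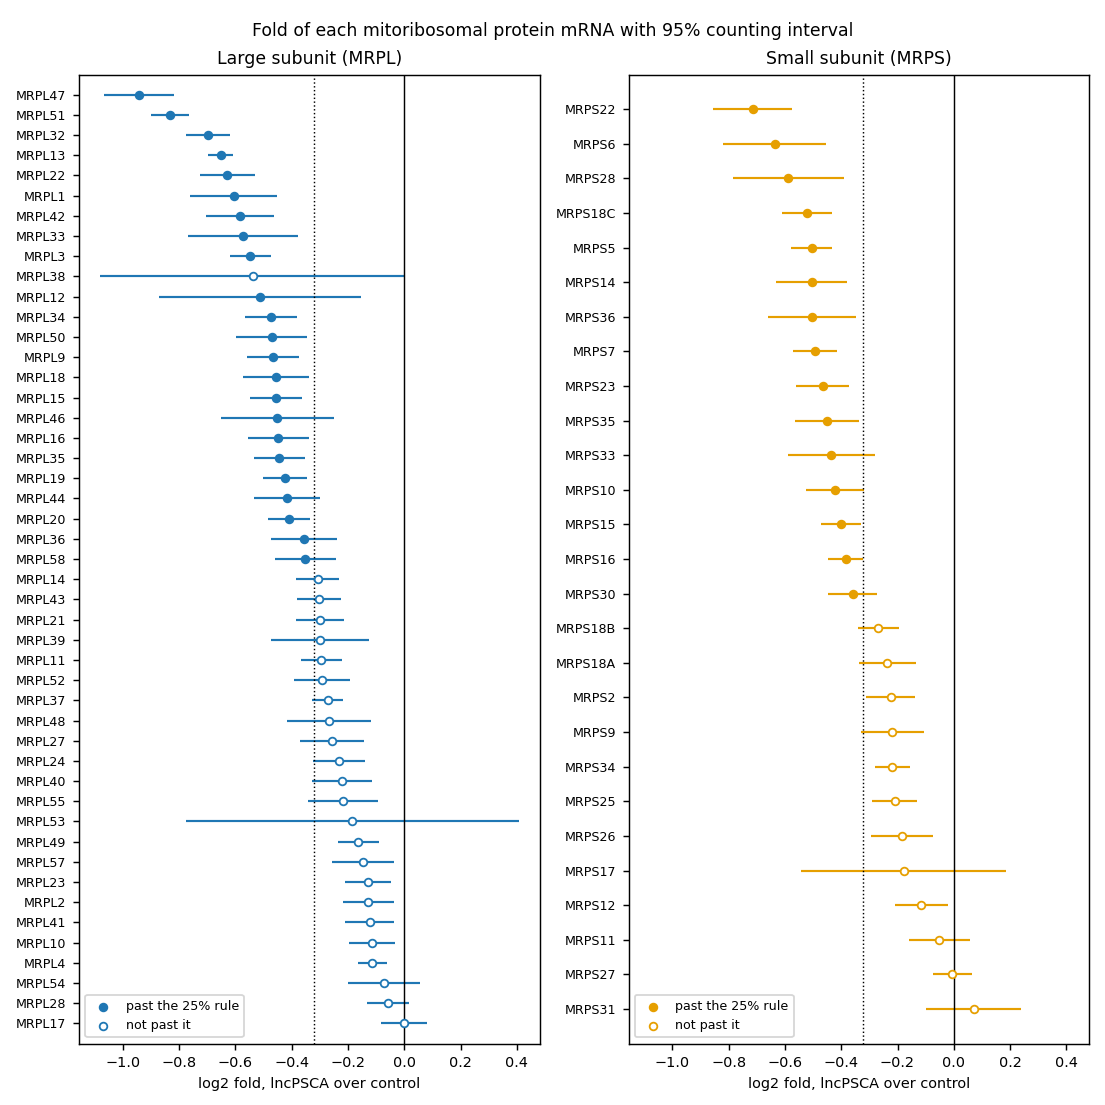
The x axis is the log2 fold of lncPSCA over control without a pseudocount and each line is 1 gene, with large subunit genes in the left panel and small subunit genes in the right. Bars are exact 95% counting intervals, filled points are the 23 large and 15 small subunit genes past the 25% rule, and the dotted line marks a level 20% lower. MRPL47 is at the top left and MRPS31 is the only point right of 0.

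Compared per length of transcript and ordered by the mean of both libraries, MRPL13 was the most abundant large subunit mRNA, at 277 CPM per kilobase in lncPSCA cells and 435 in control cells. MRPL4 followed with 189 and 204 CPM per kilobase, then MRPL20, counterpart of bacterial L20, with 156 and 208, and MRPL37, which is specific to mitochondria, with 144 and 174. The order below MRPL13 differs between the libraries, since MRPL20 was above MRPL4 in the control library and below it in the lncPSCA library. MRPL13 led MRPL4 more than 2-fold in the control library and by less in the lncPSCA library. In the small subunit, MRPS34 was at 166 CPM per kilobase in lncPSCA cells and 193 in control cells, MRPS15 at 125 and 165, MRPS18B at 80.6 and 97.0, and MRPS5, whose bacterial counterpart helps to keep decoding accurate, at 72.8 and 103, so that MRPS5 was below MRPS18B in lncPSCA cells and above it in control cells. MRPS34 and MRPS18B are proteins of the mitochondrial small subunit, and MRPS15 is the counterpart of bacterial S15. The folds were 0.753 (0.714 to 0.793) for MRPL20, 0.828 (0.797 to 0.860) for MRPL37, 0.860 (0.823 to 0.898) for MRPS34, 0.758 (0.721 to 0.796) for MRPS15, 0.830 (0.789 to 0.874) for MRPS18B and 0.705 (0.670 to 0.740) for MRPS5. Abundant mRNAs were thus found both among those past the 25% rule (MRPL13, MRPL20, MRPS15, MRPS5) and among those not past it (MRPL4, MRPL37, MRPS34, MRPS18B).

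MRPS18A, MRPS30 and MRPS36 sit elsewhere than their symbol says, and MRPL58 has an enzyme's role. MRPS18A and MRPS30 belong to the large subunit in the structure, and their folds were 0.849 (0.791 to 0.910) and 0.779 (0.733 to 0.828). MRPL58, known as ICT1, is a peptidyl-tRNA hydrolase built into the large subunit, with a fold of 0.784 (0.727 to 0.845). MRPS36, known as KGD4, is a part of the 2-oxoglutarate dehydrogenase complex and not of the ribosome, with a fold of 0.706 (0.633 to 0.787). MRPS36 thus had the same direction as the ribosomal proteins around it.

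Split by origin, proteins with bacterial counterparts held more of the lower genes in both subunits, although no test of that difference was made. In the large subunit, 17 of 29 such genes were lower, with a median log2 ratio of -0.42, against 7 of 20 of the proteins specific to mitochondria, with a median of -0.30. In the small subunit, 9 of 14 were lower, with a median of -0.41, against 4 of 10, with a median of -0.24. MRPS18A and MRPS30 are counted in the large subunit here, and MRPS36 in neither group.

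The ratios within the set ran with the base composition of the transcript. Members were put in 3 groups by GC content. In the lowest group, from 34.96% to 46.4%, 21 of 25 genes were lower and the median log2 ratio was -0.47. In the middle group it was 13 of 24, with a median of -0.37, and in the highest group, from 52.9% to 71.9%, it was 4 of 25, with a median of -0.22. Of all genes in the same GC ranges, 20.5%, 18.9% and 11.8% were lower by the same rule, low to high, with medians of 0.01, -0.07 and -0.02. Across the 74 members the Spearman correlation of the ratio was 0.49 with GC content, 0.05 with length and 0.165 with level. Over all genes with a length it was -0.013, 0.244 and -0.23. Within the subunits, the correlation with GC content was 0.577 for the large and 0.313 for the small. Members had a median length of 1430.5 bases and a median level of 81.7 CPM, against 2818 bases and 21.9 CPM over all measured genes. The GC groups are described within the same 2 libraries, and what part base composition, length or level has in the ratios was not tested.

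**Figure D4:**
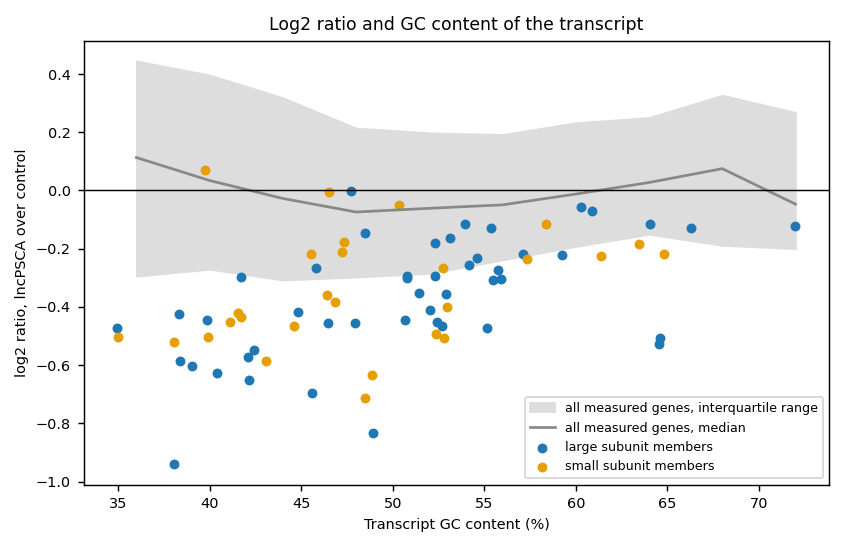
The x axis is the GC content of the transcript in percent and the y axis the log2 ratio of lncPSCA over control. Blue points are large subunit genes, orange points small subunit genes, and the grey line and band are the median and the interquartile range of all measured genes along GC content. In the lowest GC group 21 of 25 members were lower. MRPS22, MRPS6 and MRPL51, at 48.5%, 48.9% and 48.9%, are low ratios in the middle group. MRPS31, the highest ratio, is at 39.7%.

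Members with few reads were few and lay mostly on exons shared with another gene. 3 members were below 1 CPM. MRPL30 had 1 read in the lncPSCA library and 2 in the control library, MRPS21 had 0 and 0, and MRPS24 had 9 and 7. With MRPL12, MRPL38, MRPL53 and MRPS17, which had 118, 53, 50 and 128 reads in lncPSCA cells and 151, 69, 51 and 130 in control cells, they are the 7 members under 10 CPM, named here after their values were seen. MRPL12 is the protein of the stalk that binds translation factors and has a fold of 0.701 (0.546 to 0.898). In GENCODE 29, 6 of these 7 share exonic bases with another gene on the same strand, 5 of them over at least 20% of their exons (MRPL12 68.2%, MRPL53 45.2%, MRPL38 37.5%, MRPS17 27.0% and MRPS24 23.2%). Of the 70 members at 10 CPM or more, 10 share any and 2 at least 20%. A read that falls on 2 genes may be given to neither, depending on counting settings that the sources used here do not give, so the low counts of these members were not read as low expression.

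Overlap on either strand touched 41 members. MRPL51 shares 31.3% of its exonic bases with the opposite-strand gene NCAPD2, which had 8028 reads in lncPSCA cells and 8182 in control cells. MRPL47 shares 9.1% with ACTL6A, which had 2073 and 2443 reads. Without the 41 members, 17 of 35 were lower (48.6%, against 16.8% of all genes) and the median was -0.31. 12 members have a pseudogene row that holds reads, 80 in the lncPSCA library and 82 in the control library over all such rows. Without those members 31 of 63 were lower (49.2%), with a median of -0.35.

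The lists of genes around the mitochondrial ribosome had medians below 0 but nearer to 0 than the median of the members. That order did not hold under every scaling. Centred along transcript length, the regulators of mitochondrial biogenesis had a median of -0.33, against -0.26 for the members. Centred along mean level, length and GC content together, these regulators had -0.26 and the translation factors -0.15, against -0.13 for the members. Of the 5 ribosomal proteins with other symbols, CHCHD1 was lower, with a fold of 0.788 (0.728 to 0.853), and the median of the 5 was -0.22. AURKAIP1, DAP3, GADD45GIP1 and PTCD3 were not past the rule. Of 29 assembly factors, 6 were lower (20.7%, near the 16.8% of all genes) and 0 higher, with a median of -0.18. NGRN, an RNA-binding factor needed for the large subunit, had a fold of 0.604 (0.555 to 0.658), and YBEY, an endoribonuclease, TRMT61B, a methyltransferase of mitochondrial RNA, and NDUFAB1, the mitochondrial acyl carrier protein, had folds of 0.740, 0.756 and 0.775.

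Translation factors and related RNA-binding proteins, 19 genes in all, had 3 lower (15.8%, no more than the 16.8% of all genes) and 1 higher, with a median of -0.18. MTFMT, which formylates the initiator tRNA, had a fold of 0.647 (0.562 to 0.743), GFM2, a ribosome recycling factor, 0.792 and SLIRP, which stabilises mitochondrial mRNA, 0.767. LRPPRC, the partner of SLIRP, was higher, at 301 CPM in lncPSCA cells and 201 CPM in control cells, a fold of 1.496 (1.440 to 1.554). Partners in 1 complex therefore lay on opposite sides of 1.

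Of 14 genes of mitochondrial transcription and genome maintenance, 5 were lower (35.7%, against 16.8% of all genes), with a median of -0.27. The number higher was 1, where 18.9% of all genes were higher. TFAM, which packages mitochondrial DNA and starts its transcription, had a fold of 0.610 (0.562 to 0.662). SSBP1, the single-stranded DNA-binding protein, had 0.623 (0.594 to 0.652) and TFB2M, a transcription factor of the mitochondrial polymerase, 0.639 (0.587 to 0.696). PNPT1, the mitochondrial polynucleotide phosphorylase, which is also an interferon-induced gene, was the single gene of these lists past the 2-fold rule, at 286 CPM in lncPSCA cells and 83.6 CPM in control cells, a fold of 3.42 (3.25 to 3.61).

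Nuclear-encoded subunits of the respiratory chain had 30 lower of 74 measured (40.5%, against 16.8% of all genes), with a median of -0.28. Those higher were 0, against 18.9% of all genes. SDHD of complex II had a fold of 0.511 (0.467 to 0.559), and NDUFA5, NDUFB5 and NDUFB4 of complex I had folds of 0.530, 0.531 and 0.627. Of 8 measured regulators of mitochondrial biogenesis, 0 were lower and 1 was higher, a list too short to set against the 16.8% and 18.9% of all genes. The higher one was MYC, at 483 CPM in lncPSCA cells and 370 CPM in control cells, a fold of 1.31 (1.27 to 1.35). NRF1, GABPA and YY1, whose motifs are marked in the promoters above, had folds of 0.805 (0.716 to 0.904), 0.837 (0.736 to 0.951) and 0.840 (0.806 to 0.876), none past the rule.

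**Figure D5:**
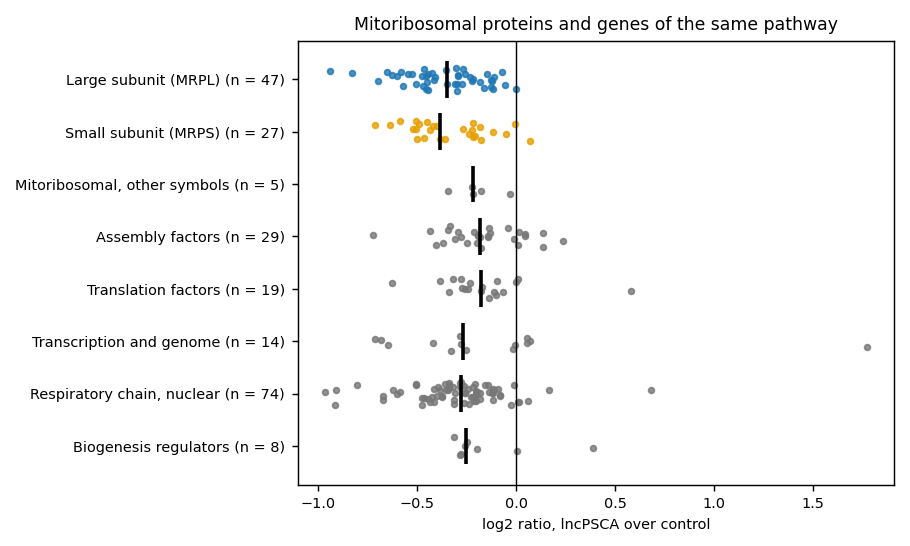
The x axis is the log2 ratio of lncPSCA over control and each row is a list of genes with its number of measured members, large and small subunit at the top. Points are genes, spread vertically only so that they can be told apart, and the black bar is the median of the list. The medians of both subunits, -0.35 and -0.38, lie left of those of the other lists with the TMM scaling shown, an order that fails when ratios are centred along transcript length or along level, length and GC content together, and PNPT1 is the point far to the right.

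The ribosomal RNAs went the other way from the proteins. MT-RNR1, the small subunit rRNA, was at 785 CPM in lncPSCA cells and 588 CPM in control cells, a fold of 1.34 (1.31 to 1.37), and MT-RNR2, the large subunit rRNA, was at 5633 CPM and 3128 CPM, a fold of 1.80 (1.78 to 1.82). These genes and the reading of their values were added after the values were seen. How the library kit treats ribosomal RNA is not given in the sources used here, so whether the kit took part in these values was not tested.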

How the data were processed

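RNA was sequenced from 1 lncPSCA library and 1 control library. The authors deposited 1 table of raw read counts per Ensembl gene with both libraries. TopHat2, HTSeq and the build hg19 are named, per the submitters' processing notes, with no versions or settings; the sources used here give neither the annotation release nor the strand setting. Symbols were matched for 52181 identifiers (81.9%). MRPL45 was not matched and was not analysed here.

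Library sizes were scaled by TMM in edgeR 4.0.16, with factors of 1.02 for lncPSCA and 0.979 for control. CPM came from the scaled sizes, and the log2 ratio used counts plus a pseudocount of 1, which understates the ratio of low genes. The minimum was a mean of 1 CPM. Folds are ratios of CPM with exact 95% Clopper-Pearson counting intervals; reads are not independent molecules, so these cover counting error only. With 1 library per group, no p-value was computed. Gene type, transcript length, GC content and exon overlap came from GENCODE 29 (GRCh38, another build), for the principal transcript or, failing that, the longest, and are available for 97.1% of measured genes. Promoters are from RefSeq.

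The members and lists were chosen with earlier results of these data known. Named members are those past the 2-fold rule, the 8 lowest and 8 highest ratios, the 4 most abundant per kilobase in each subunit, and MRPS18A, MRPS30, MRPL58 and MRPS36 for their place or role. Named genes of other lists are up to 4 past the 25% rule with the largest ratios at 5 CPM or more, or the 2 most abundant; others were chosen after their values were seen. Alternatives were other scalings, including DESeq2 1.42.0 size factors, low-value filters, another pseudocount and other choices of members, 3 of them added after the data were seen.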

Additional observations from a re-analysis of the deposited data

Results flagged for a closer look

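MRPL23-AS1, an antisense RNA named for a large subunit gene and itself no member, had 28 reads in the lncPSCA library and 10 in the control library, a fold of 2.51 (counting interval 1.18 to 5.80). It drew attention as a signal outside the main measurement, since it was the 1 row of the 20 MRP-named rows with reads and outside the protein-coding members whose interval lay wholly above 1. Of all genes that reached 1 CPM, 27.0% had such an interval, so 1 of 20 rows is not many. Most of the 20 rows are under that level. MRPL23-AS1 has few reads, its mean is under 1 CPM, and MRPL23 itself had a log2 ratio of -0.13. Since the sources used here do not give the strand setting, reads of the gene and of its antisense partner cannot be told apart where they share bases. No samples were screened for outliers, since each group holds 1 library.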

How the results depend on the processing

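No paired analysis was possible because each group has 1 library, and for the same reason no library could be left out. Under DESeq2 size factors, total counts, upper-quartile scaling, either single centring along mean expression or transcript length, both CPM filters, the other pseudocount and the removal of members with pseudogene reads, between 31 and 43 members were lower by the 25% rule, 0 were higher, and the median log2 ratio lay between -0.38 and -0.26. As shares, 41.9% to 58.1% of members were lower in these settings, against 10.3% to 19.7% of all genes. Members below 0 were 71 of 74 with DESeq2 size factors and 69 with total counts. They were 67 when centred along mean expression and 66 when centred along transcript length. The difference of medians, large minus small subunit, reversed to -0.013 when ratios were centred along mean expression and to -0.039 with summed reads. Of the alternatives added after the data were seen, centring along GC content put 1 member past the 2-fold rule as lower, MRPL47. Centring along mean expression, length and GC content together gave a median of -0.13 with 19 members lower, 18 of them among the 38 of the main scaling. It left 58 of 74 members below 0. Without members that overlap other exons, 17 of 35 were lower. That was 48.6% of those left, with a median of -0.31, against 51.4% and -0.36 over all 74. Of the measured members with overlap, 21 of 39 were lower (53.8%), with a median of -0.42. The cause of these changes was not tested. Depth limits members under 10 CPM, and no alternative measures the spread between cultures.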

Other observations

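Other RNAs named for mitoribosomal genes had enough reads to describe. MRPL20-DT, a transcript divergent from MRPL20, had 103 reads in the lncPSCA library and 182 in the control library, a fold of 0.508 (counting interval 0.3949 to 0.6503), beside a fold of 0.753 for MRPL20. MRPS9-AS1 had 422 reads in lncPSCA cells and 379 in control cells, a fold of 0.999 (0.868 to 1.15), beside a log2 ratio of -0.22 for MRPS9. MRPL20-AS1 had 1304 reads in lncPSCA cells and 1365 in control cells, a fold of 0.857 (0.794 to 0.926). These genes were named after their values were seen, and where they share bases with a coding gene the reads of the pair cannot be told apart without the strand setting.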
